A study of Mus musculus with 4 samples.

Results

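The genes of creatine phosphorylation and creatine supply were followed in RNA sequencing of mouse brown adipose tissue (BAT). They are the 4 creatine kinase genes Ckb, Ckm, Ckmt1 and Ckmt2, the synthesis genes Gatm and Gamt, the uptake transporter gene Slc6a8 and the phosphatase gene Alpl. These 8 genes were found by symbol among the 55387 rows of each library. Rows were tested where the mean of either genotype exceeded 1 FPKM. This held for 12877 rows, of which 7 were creatine genes, and Ckmt1 was the gene left out. FPKM divide the fragments of a gene by the length of its transcript and by the depth of the library. Levels may thus be compared between genes of a library, and between libraries only as far as their makeup is alike. The calls moved with the scaling of the libraries, as given below.

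BAT was taken from 4 male mice 15 weeks old, with 1 library per mouse. The 2 control mice were Sox4f/f littermates, which carry the floxed Sox4 alleles and which the sample labels call WT. The other 2 mice were Sox4-MKO, in which Cre recombinase under control of Myf5 acts on the floxed alleles. Myf5 is active in the precursors of both brown fat and skeletal muscle, so the deletion is not limited to adipocytes. The labels name adipocytes as the cell type, whereas the protocol describes whole tissue. The summed FPKM lay between 472062 and 578011 per library, and the depth was estimated at about 12300000 to 17400000 fragments.

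Creatine kinases move phosphate between ATP and creatine. The brain-type enzyme CKB and the muscle-type enzyme CKM are classed as cytosolic, and the enzymes encoded by Ckmt1 and Ckmt2 lie in the space between the mitochondrial membranes. RNA levels do not show where these enzymes lie in brown fat cells. GATM makes guanidinoacetate from arginine and glycine, GAMT methylates guanidinoacetate to creatine, and creatine enters cells through SLC6A8. In brown fat, phosphorylation of creatine followed by hydrolysis of phosphocreatine is known as a futile cycle that spends ATP, in which CKB and the alkaline phosphatase TNAP, encoded by Alpl, take part. Skeletal muscle has its own large phosphocreatine store, for which Ckm and Ckmt2 are the characteristic kinases.

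The promoters of the 3 kinase genes that were read at 1 FPKM or more in every library are printed here, since these genes had the lowest unadjusted p-values of the creatine genes. Each run holds the 250 bases before the annotated start, 5′ to 3′ on the strand of the gene, from RefSeq (GRCm38.p6). Capitals mark the matches to the motifs searched. For Ckb the run is chr12:111672339-111672588 on the minus strand and the capitals are a TATA box, TATAAA. For Ckm it is chr7:19410844-19411093 on the plus strand and the capitals are an E-box, CAGCTG, and a match to the palindrome TCCCNNGGGA of the EBF family. For Ckmt2 it is chr13:91876886-91877135 on the minus strand and the capitals are an E-box.
Ckb: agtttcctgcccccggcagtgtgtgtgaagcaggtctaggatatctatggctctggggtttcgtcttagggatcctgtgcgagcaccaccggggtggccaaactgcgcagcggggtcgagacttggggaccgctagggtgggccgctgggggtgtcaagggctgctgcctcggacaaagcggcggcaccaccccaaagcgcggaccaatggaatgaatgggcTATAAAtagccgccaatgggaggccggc
Ckm: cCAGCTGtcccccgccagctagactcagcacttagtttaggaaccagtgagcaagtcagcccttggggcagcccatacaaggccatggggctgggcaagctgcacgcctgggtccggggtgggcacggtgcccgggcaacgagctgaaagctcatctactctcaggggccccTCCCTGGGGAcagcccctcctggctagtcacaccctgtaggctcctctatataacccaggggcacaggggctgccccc
Ckmt2: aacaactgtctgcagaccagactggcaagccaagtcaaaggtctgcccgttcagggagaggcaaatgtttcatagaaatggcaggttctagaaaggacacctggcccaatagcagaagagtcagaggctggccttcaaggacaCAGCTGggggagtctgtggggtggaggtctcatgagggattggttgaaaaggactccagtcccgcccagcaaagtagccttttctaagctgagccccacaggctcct

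The TATA box of Ckb spans bases 28 to 23 before the start. In Ckm the E-box spans bases 249 to 244 and the EBF palindrome bases 78 to 69 before the start, and in Ckmt2 the E-box spans bases 107 to 102. Among the promoters not printed, those of Alpl held an E-box (bases 176 to 171) and, separately, a TATA box (bases 192 to 187). Ckmt1 held a TATA box at bases 31 to 26, and Gatm and Gamt held no match. The E-box was searched only as CAGCTG, so other forms of it were neither marked nor counted. Both strands were searched in 32851 RefSeq promoters of the same length. TATAAA was present in 12.4% of them, CAGCTG in 13.0% and TCCCNNGGGA in 0.779%. The 2 SOX motifs searched were AACAAAG, present in 5.03% of the promoters, and AACAAGT, present in 2.54%. Neither SOX motif had a match in the promoters of the 7 creatine genes with an entry (Ckb, Ckm, Ckmt1, Ckmt2, Gatm, Gamt and Alpl). These matches describe letters in a short window and say nothing of binding.

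Sox4 itself was measured first, as a check of the genotype. The libraries of Sox4f/f mice 1 and 2 held 1.98 and 1.06 FPKM, and those labelled as Sox4-MKO mice 1 and 2 held 0.98 and 3.06 FPKM. Values are given in this order of mice throughout. The genotypes overlapped, and the highest value carried a Sox4-MKO label. On the log2(FPKM + 1) scale the change was 0.20 ± 0.43 (SE; adjusted p = 0.843 in limma with Benjamini-Hochberg adjustment). Every direction given here is therefore one between the libraries as labelled. The brown marker Ucp1, the uncoupling protein of the inner mitochondrial membrane, was high in all libraries, with 1935 and 1814 FPKM in Sox4f/f and 733 and 1105 FPKM in Sox4-MKO.

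Among the 7 tested creatine genes, 1 was lower (Ckb) and 3 were higher (Ckm, Ckmt2 and Gamt) in Sox4-MKO when an unadjusted p under 0.05 was asked for. Under this rule, 1066 genes of all tested were lower, or 8.28%, and 1024 were higher, or 7.95%. Gatm, Slc6a8 and Alpl did not pass. After Benjamini-Hochberg adjustment over all tested genes, limma called 0 genes, or 0%, and the smallest adjusted p of any gene was 0.191. The median log2 fold change of all tested genes was -0.05. When libraries were brought to a common sum without the muscle marker genes described below, that median was 0.17 and the lower genes made up 11.1% of all calls instead of 51.0%. With a common sum without Ucp1 and the mitochondrially encoded genes they made up 36.1%.

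In terms of overlap, 2 creatine genes were lower in both Sox4-MKO libraries than in either control (Ckb and Alpl). Of all tested genes 29.6% were. A further 4 were higher in both (Ckm, Ckmt2, Gatm and Gamt), as were 21.7% of all tested genes. Slc6a8 overlapped. With 2 mice per genotype the smallest p of an exact permutation test is 0.333, so single values could not pass a threshold of 0.05 in that test.

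**Figure D1:**
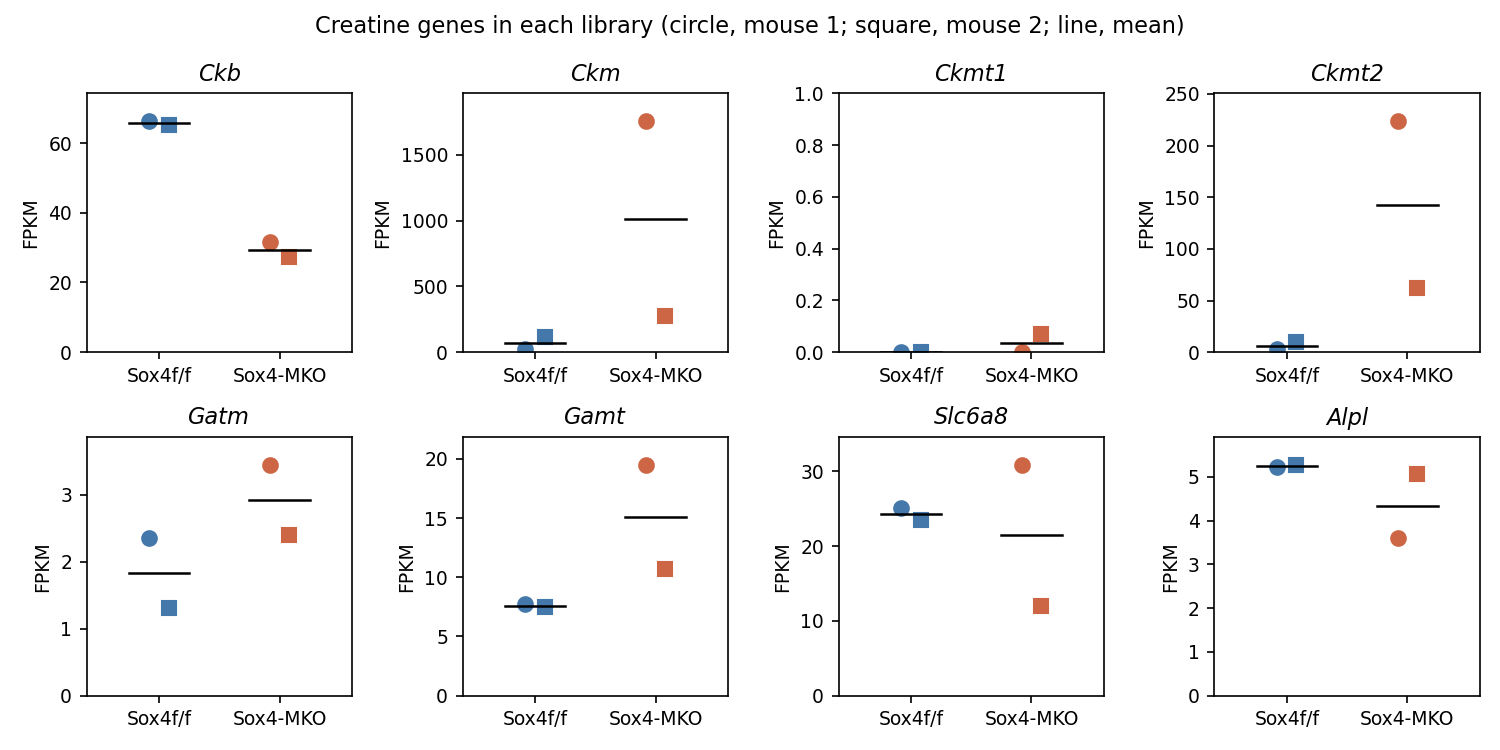
FPKM of the 8 creatine genes in each library, with 1 panel per gene and its own linear axis from 0. Circles are mouse 1 and squares mouse 2 of each genotype, and the line is the mean of the 2 mice. Ckb lies near 65 FPKM in both controls and near 30 FPKM in both Sox4-MKO libraries, whereas Ckm and Ckmt2 differ most between the 2 Sox4-MKO mice.

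The brain-type kinase gene Ckb was the one creatine gene that was lower in Sox4-MKO at an unadjusted p under 0.05. The gene occupies bases 111669361 to 111672338 of chromosome 12 (GRCm38, minus strand). It was read at 66.3 and 65.2 FPKM in the controls and at 31.7 and 27.2 FPKM in Sox4-MKO. Both Sox4-MKO values were below both controls, and the gap was larger than the spread within either genotype. Means were 65.7 ± 0.77 FPKM (Sox4f/f) and 29.5 ± 3.17 FPKM (Sox4-MKO; SD, n = 2 mice each), 2.23-fold lower. On the log2(FPKM + 1) scale the change was -1.14 (95% interval -1.48 to -0.79), with an unadjusted p of 0.000488 and an adjusted p of 0.191 in limma. The unadjusted p stayed under 0.05 when any single library was left out.

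Ckb was then set beside the genes of fat cells. Ckb amounted to 3.42% and 3.59% of Ucp1 in the controls and to 4.32% and 2.46% in Sox4-MKO, so on this measure the genotypes overlapped (exact permutation p = 1). Against the summed FPKM of 7 general adipocyte genes it was 0.676% and 0.632% in the controls and 0.362% and 0.231% in Sox4-MKO, with no overlap (exact permutation p = 0.333). Of the 9 brown adipocyte genes, 6 were lower and 0 higher at an unadjusted p under 0.05 in limma, with a median log2 fold change of -0.82. That median was -0.46 under quantile normalization. The sum of these genes was 8180 and 7944 FPKM in Sox4f/f and 4180 and 4804 FPKM in Sox4-MKO. The part of this fall in the value of Ckb was not tested. In whole tissue, fewer cells of a type and less RNA per cell cannot be told apart.

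Other cell types express Ckb too, and their markers were examined. None of the 5 smooth muscle genes passed the test, with sums of 50.5 and 68.7 FPKM in Sox4f/f and 57.2 and 64.5 FPKM in Sox4-MKO. None of the 4 tested Schwann cell genes passed, with sums of 64.6 and 61.4 FPKM in Sox4f/f and 89.2 and 62.3 FPKM in Sox4-MKO. A possible source of miscounted reads is the pseudogenes of Ckb. Of 1423 stretches of 50 bases in the Ckb transcript, 312 also occur in Gm12892, Ckb-ps1 or Ckb-ps2. The deposited values of these genes were at most 0.072 FPKM, and the other creatine genes shared no such stretch with another gene.

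The muscle-type kinase gene Ckm had the highest level of the 8 genes in 3 of the 4 libraries and the widest spread in FPKM. The locus is chromosome 7, 19404776 to 19422841, plus strand, and the RefSeq start that follows the printed promoter lies inside it. The level of Ckm was 26.4 and 116 FPKM in Sox4f/f and 1755 and 274 FPKM in Sox4-MKO. Sox4-MKO mouse 1 stood far above the other mice, and the genotypes did not overlap. Means were 71.1 ± 63.2 FPKM (Sox4f/f) and 1014 ± 1048 FPKM (Sox4-MKO; SD, n = 2 mice each), 14.3-fold higher, but the spread among the Sox4-MKO mice was as large as the mean. The log2 fold change was 3.62 (95% interval 0.66 to 6.58), with an unadjusted p of 0.0263 and an adjusted p of 0.254 in limma. Without Sox4-MKO mouse 1 the change was 2.28 and without Sox4f/f mouse 1 it was 2.57, and neither passed an unadjusted 0.05. Nor did Ckm pass in the tests without moderation of the variance. The antisense gene A930016O22Rik overlaps the locus and had at most 1.30 FPKM.

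The sarcomeric mitochondrial kinase gene Ckmt2 also rose. The locus is chromosome 13, 91853387 to 91876885, minus strand. Its level was 2.75 and 9.54 FPKM in Sox4f/f and 224 and 62.3 FPKM in Sox4-MKO. Both Sox4-MKO values were above both controls, again with mouse 1 on top. Means were 6.15 ± 4.80 FPKM (Sox4f/f) and 143 ± 114 FPKM (Sox4-MKO; SD, n = 2 mice each), 23.3-fold higher. Its log2 fold change was 4.24 (95% interval 2.18 to 6.31), with an unadjusted p of 0.00373 and an adjusted p of 0.196 in limma. It passed an unadjusted 0.05 when any single library was left out, with changes of 3.33 to 5.16, but not in the tests without moderation of the variance.

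Ckmt1, the mitochondrial kinase gene of tissues other than striated muscle, was listed at 0 in both Sox4f/f libraries and in Sox4-MKO mouse 1, and at 0.070 FPKM in Sox4-MKO mouse 2, or about 2 fragments. The locus is chromosome 2, 121357714 to 121363737, plus strand. It was not tested and no fold was computed. A value of 0 in these files may also be a failed estimate.

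Ckm and Ckmt2 are muscle genes, so they were read beside a list of 21 other fast and general muscle genes and 6 slow muscle genes. All of the slow genes and 19 of the fast and general genes were higher in Sox4-MKO at an unadjusted p under 0.05 in limma, and none was lower. Their median log2 fold changes were 4.86 and 3.79, and 3.82 and 2.47 without Sox4-MKO mouse 1. The fast and general genes summed to 357 and 1150 FPKM in Sox4f/f and to 20633 and 4141 FPKM in Sox4-MKO, and the slow genes to 7.97 and 46.4 FPKM in Sox4f/f and 1625 and 393 FPKM in Sox4-MKO. Among the defining genes, Acta1, the skeletal muscle actin, was 59.9 and 226 FPKM in Sox4f/f and 4512 and 898 FPKM in Sox4-MKO, and none of the 27 genes was listed at 0 in a library. The order of the 4 libraries was the same for both sums, for Ckm and for Ckmt2. The part of muscle RNA in the values of Ckm and Ckmt2 was not tested.

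The differences of Ckm were similar in scale to those of the fast and general muscle sum, and those of Ckmt2 were larger in both Sox4-MKO libraries. Relative to Sox4f/f mouse 1, the lowest library, the fast and general muscle sum was 3.22-fold in Sox4f/f mouse 2, 57.8-fold in Sox4-MKO mouse 1 and 11.6-fold in Sox4-MKO mouse 2. Ckm followed with 4.38-fold, 66.4-fold and 10.3-fold, and Ckmt2 with 3.47-fold, 81.3-fold and 22.6-fold. As a share of the muscle sum, Ckm was 7.40% and 10.1% in the controls and 8.51% and 6.61% in Sox4-MKO, so the genotypes overlapped (exact permutation p = 0.667). Ckmt2 was 0.770% and 0.830% of that sum in the controls and 1.08% and 1.50% in Sox4-MKO, with no overlap (exact permutation p = 0.333). The slow muscle sum, as a share of the fast and general sum, also differed without overlap, at 2.23% and 4.03% in the controls and 7.87% and 9.50% in Sox4-MKO (exact permutation p = 0.333).

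**Figure D2:**
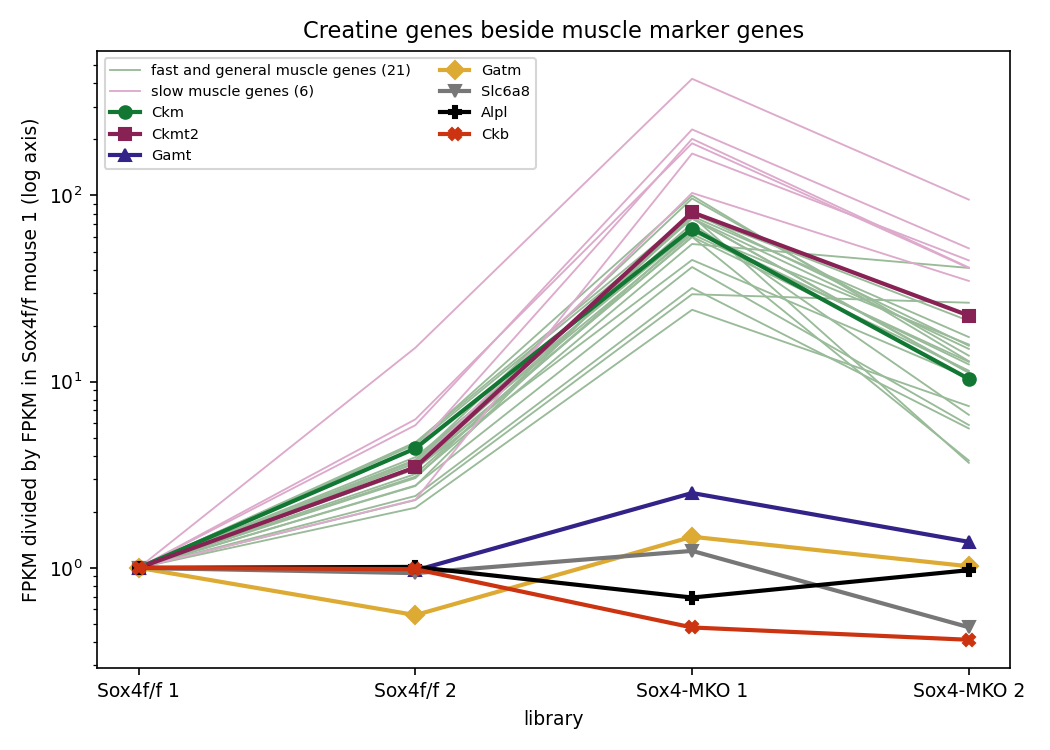
FPKM of the 7 tested creatine genes (thick lines with markers) and of the fast and general (green) and slow (pink) muscle genes, each divided by its value in Sox4f/f mouse 1, on a log axis. Lines join the values of 1 gene across the 4 libraries and imply no order of the mice. Ckm and Ckmt2 run among the muscle genes, with peaks in Sox4-MKO mouse 1, whereas Ckb stays below 1 in both Sox4-MKO libraries.

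The makeup of the kinase messages differed as well. The 4 kinase genes summed to 95.5 and 191 FPKM in Sox4f/f and to 2011 and 363 FPKM in Sox4-MKO. Ckb made up 69.4% and 34.2% of that sum in the controls and 1.58% and 7.50% in Sox4-MKO. No Sox4-MKO library reached the share of a control (exact permutation p = 0.333), but the controls differed widely, with an SD of 24.9 points. Ckm made up 27.7% and 60.8% in the controls and 87.3% and 75.3% in Sox4-MKO. Ckmt2 made up 2.88% and 5.01% in the controls and 11.1% and 17.2% in Sox4-MKO.

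**Figure D3:**
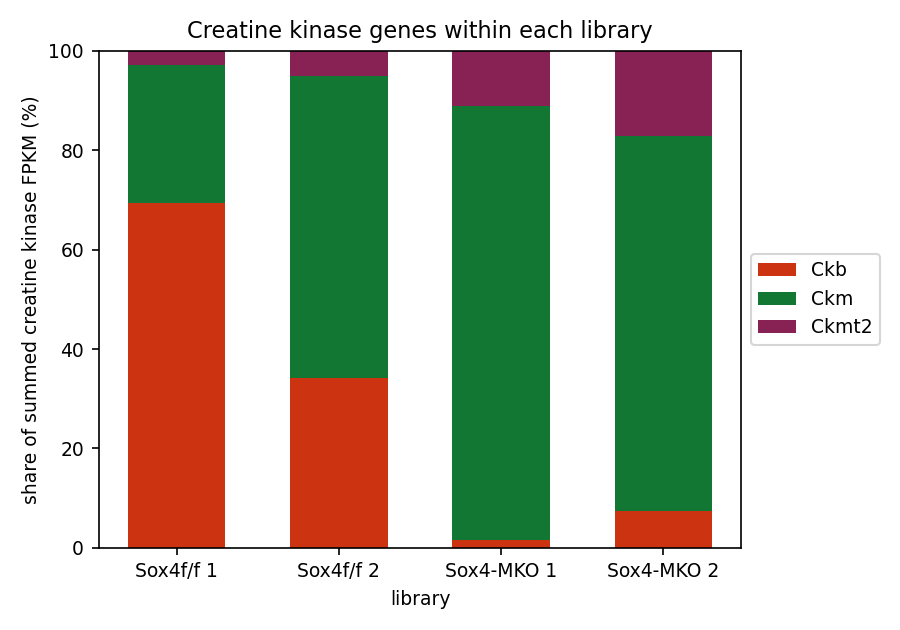
Share of each creatine kinase gene in the summed FPKM of the kinase genes, as stacked bars for the 4 libraries. Ckmt1 held at most 0.019% of the sum and is not drawn. Ckb was the largest share in Sox4f/f mouse 1 alone, at 69.4%, and Ckm was the largest in the other 3 libraries.

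Of the genes that make creatine, Gamt rose. Gamt, which methylates guanidinoacetate to creatine, is at chromosome 10, 80258151 to 80261012, minus strand. Its level was 7.73 and 7.49 FPKM in Sox4f/f and 19.5 and 10.7 FPKM in Sox4-MKO. The controls were close to each other, both Sox4-MKO values were higher, and Sox4-MKO mouse 1 was again the highest. Means were 7.61 ± 0.17 FPKM (Sox4f/f) and 15.1 ± 6.25 FPKM (Sox4-MKO; SD, n = 2 mice each), 1.98-fold higher. On the log2 scale this was 0.84 (95% interval 0.06 to 1.63), with an unadjusted p of 0.0403 and an adjusted p of 0.286 in limma. The call was lost without Sox4-MKO mouse 1, where the change was 0.44, and without Sox4f/f mouse 1 (0.87) or Sox4f/f mouse 2 (0.82). It was also lost in the tests without moderation of the variance. Relative to its lowest library, Gamt was 2.60-fold in Sox4-MKO mouse 1, the library with the highest sum of muscle genes, and the part of muscle RNA in this value was not tested.

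Gatm, which makes guanidinoacetate from arginine and glycine in the first step, was low in all libraries. The locus is chromosome 2, 122594467 to 122611303, minus strand. Its level was 2.34 and 1.31 FPKM in Sox4f/f and 3.44 and 2.39 FPKM in Sox4-MKO, from about 39 to 112 fragments. The genotypes did not overlap, but Sox4f/f mouse 1 and Sox4-MKO mouse 2 were nearly equal. The log2 fold change of 0.48 (95% interval -0.27 to 1.24) did not pass (adjusted p = 0.458 in limma), and an increase of that size could not be told from the spread between mice.

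Slc6a8, the creatine transporter gene, gave no difference between genotypes beyond the spread between mice. It is X-linked, at chromosome X, 73673150 to 73682502, plus strand. Its level was 25.0 and 23.4 FPKM in Sox4f/f and 30.9 and 12.0 FPKM in Sox4-MKO. The Sox4-MKO mice held both the highest and the lowest value. The log2 fold change was -0.31 (95% interval -1.48 to 0.86, adjusted p = 0.750 in limma). Without Sox4-MKO mouse 1 it was -0.96 and passed an unadjusted 0.05, and without Sox4-MKO mouse 2 it was 0.34. Slc6a8 was thus the creatine gene whose direction depended on a single library.

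Alpl encodes the tissue-nonspecific alkaline phosphatase, which hydrolyses phosphocreatine and many other phosphate esters. Its place is chromosome 4, 137741733 to 137796384, minus strand. Its level was 5.22 and 5.28 FPKM in Sox4f/f and 3.61 and 5.07 FPKM in Sox4-MKO. Sox4-MKO mouse 2 was just under the controls and mouse 1 was clearly lower. On the log2 scale the change was -0.24 (95% interval -0.77 to 0.29) and did not pass (adjusted p = 0.581 in limma). Alpl is also made by other cells. Of the 3 tested neutrophil genes S100a9 was higher, with list sums of 2.97 and 3.42 FPKM in Sox4f/f and 5.92 and 11.8 FPKM in Sox4-MKO, and Ly6g was listed at 0 in all libraries. The 4 osteoblast genes summed to at most 0.31 FPKM in a library, and Bglap and Ibsp were listed at 0 throughout. None of the 4 endothelial genes passed the test, and of the 4 macrophage genes Cd68 and Mrc1 were higher, with list sums of 25.8 and 42.8 FPKM in Sox4f/f and 64.6 and 57.7 FPKM in Sox4-MKO. The part of these cells in the value of Alpl was not tested.

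**Figure D4:**
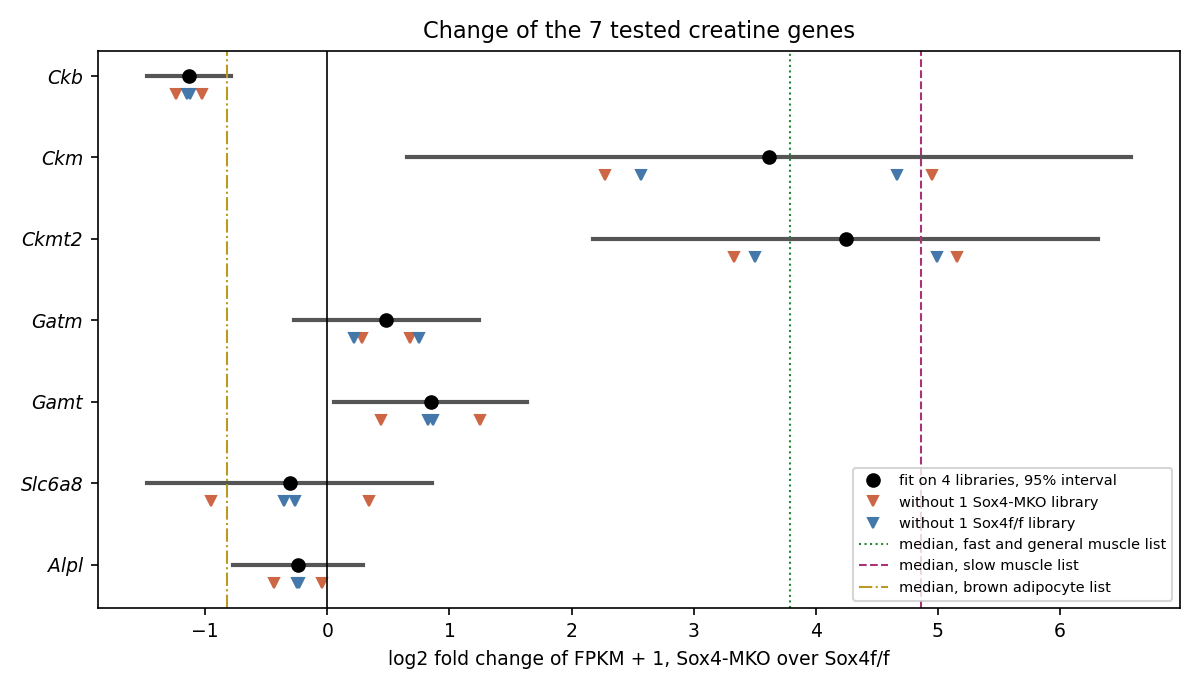
Log2 fold change of FPKM + 1, Sox4-MKO over Sox4f/f, for the 7 tested creatine genes. Black points are the limma fit with 95% intervals, triangles are fits without 1 library, and vertical lines are the medians of the marker lists (3.79 for fast and general muscle, 4.86 for slow muscle, -0.82 for brown adipocyte). The intervals of Ckb, Ckm, Ckmt2 and Gamt exclude 0, and the triangles of Slc6a8 fall on both sides of 0.

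The supply of the substrates was followed in 13 genes of the methyl donor and homocysteine pathway, which provides and recovers the methyl group that GAMT uses. Of these, 9 were tested, 1 was lower and 1 was higher at an unadjusted p under 0.05, and the median log2 fold change was -0.07. The counts of this list and of those below stand beside 8.28% of all tested genes lower and 7.95% higher. Ahcyl1, a relative of the hydrolase that removes S-adenosylhomocysteine, was 247 and 275 FPKM in Sox4f/f and 188 and 168 FPKM in Sox4-MKO, a log2 fold change of -0.55 (adjusted p = 0.214 in limma). Nnmt, which methylates nicotinamide and competes for the same donor, was 24.3 and 17.8 FPKM in Sox4f/f and 33.1 and 45.3 FPKM in Sox4-MKO, a change of 0.87 (adjusted p = 0.229). Neither gene overlapped between genotypes. Of all tested genes 29.6% were lower and 21.7% higher without overlap, and genes named for a low p tend not to overlap. The lack of overlap of genes named from these lists therefore adds nothing to their p-values. Without Sox4f/f mouse 2 neither passed an unadjusted 0.05 (changes of -0.47 and 0.65). Nnmt also missed it without Sox4-MKO mouse 2 (0.65) and in the tests without moderation of the variance, and Ahcyl1 missed it with a common sum without the muscle lists (-0.30). The median of the list changed sign under that scaling (0.17) and without Sox4-MKO mouse 2 (0.15).

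The arginine and glycine supply was followed in 13 genes, of which 11 were tested, 1 was lower and 1 was higher. Over all tested genes 8.28% were lower and 7.95% higher. Psat1, an enzyme of serine synthesis from which glycine is made, was 5.44 and 3.43 FPKM in Sox4f/f and 17.2 and 12.2 FPKM in Sox4-MKO, a log2 fold change of 1.54 (adjusted p = 0.196 in limma). Both Sox4-MKO libraries were more than 2-fold above both controls, and Psat1 passed an unadjusted 0.05 when any single library was left out, but not in the tests without moderation of the variance. Shmt1, which turns serine into glycine in the cytosol, was 16.7 and 16.0 FPKM in Sox4f/f and 8.05 and 10.2 FPKM in Sox4-MKO, a change of -0.78 (adjusted p = 0.211). It did not overlap, and it missed an unadjusted 0.05 without Sox4f/f mouse 1 (-0.75). The other members of the serine route, Phgdh and Psph, had changes of 0.22 and 0.34 and did not pass. The median of the list was 0.22, and it ranged from 0.02 without Sox4-MKO mouse 1 to 0.47 with a common sum without the muscle lists.

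Slc16a12, a transporter through which creatine leaves cells, was 0.32 and 0.85 FPKM in Sox4f/f and 2.14 and 0.90 FPKM in Sox4-MKO. Its change of 0.64 did not pass (adjusted p = 0.443 in limma), and Sox4f/f mouse 2 and Sox4-MKO mouse 2 were nearly equal.

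The exchange of ATP and ADP across the mitochondrial membranes and their transfer by adenylate kinases was followed in 9 genes, all tested. Ak3, the adenylate kinase of the mitochondrial matrix, was lower, at 157 and 168 FPKM in Sox4f/f and 129 and 134 FPKM in Sox4-MKO, a log2 fold change of -0.30 (adjusted p = 0.293 in limma). It did not overlap, but the call was lost when any single library was left out and held in 5 of the 16 alternatives, and with a common sum without the muscle lists the change was -0.05. No gene of the list was higher. The median of -0.08 had no stable sign, with 0.36 without Sox4-MKO mouse 2, 0.12 without Sox4f/f mouse 2 and 0.08 with a common sum without the muscle lists. Slc25a4, the ATP and ADP carrier abundant in muscle, was 224 and 276 FPKM in Sox4f/f and 717 and 281 FPKM in Sox4-MKO and did not pass, with a change of 0.85. Ak1, the cytosolic adenylate kinase of muscle, was 30.9 and 45.6 FPKM in Sox4f/f and 173 and 46.8 FPKM in Sox4-MKO, with a change of 1.24, and did not pass either. Both were high in Sox4-MKO mouse 1 alone.

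Among 7 genes of phosphatases and phosphate handling near Alpl in function, 3 were tested and 1 was lower. Phospho1, a phosphatase that acts on phosphocholine and phosphoethanolamine, was 541 and 499 FPKM in Sox4f/f and 255 and 297 FPKM in Sox4-MKO. The genotypes did not overlap, the log2 fold change was -0.91 (adjusted p = 0.196 in limma), and the gene passed an unadjusted 0.05 when any single library was left out. The level of Phospho1 was far above that of Alpl in every library. The other alkaline phosphatase genes Alpi, Akp3 and Alppl2 were listed at 0 in all libraries.

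**Figure D5:**
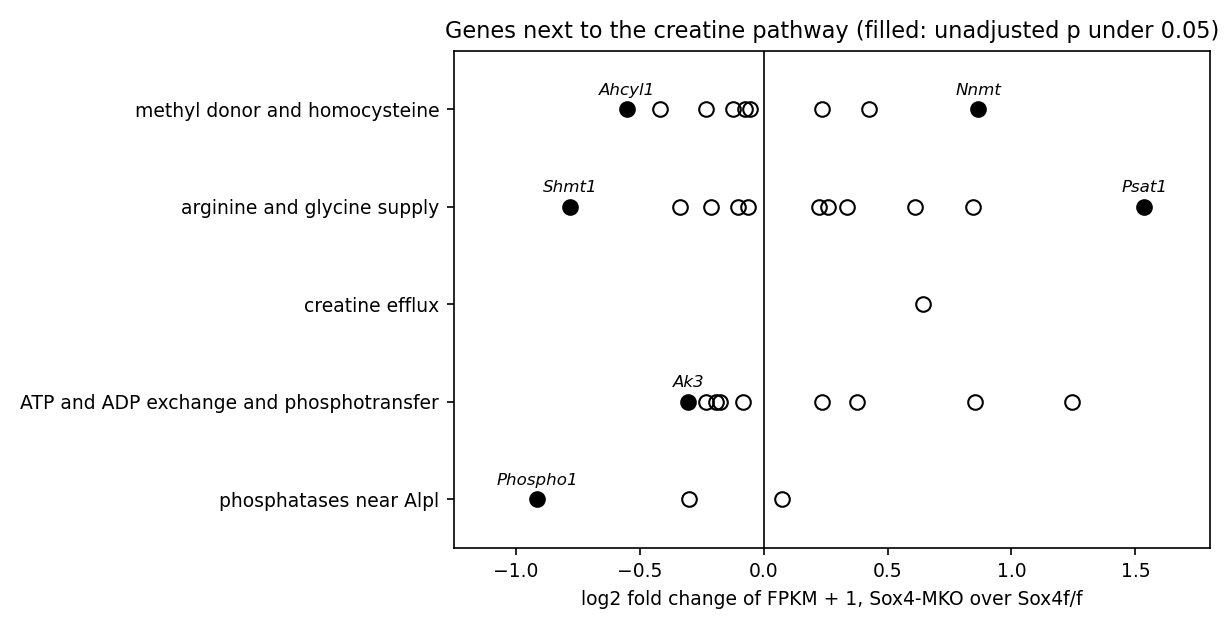
Log2 fold change of FPKM + 1, Sox4-MKO over Sox4f/f, of the tested genes in 5 lists next to the creatine pathway. Filled points passed an unadjusted p under 0.05 in limma and are named, and open points did not. The filled points run from -0.91 for Phospho1 to 1.54 for Psat1, and each list has points near 0 or on both sides of it, apart from the single gene of creatine efflux at 0.64.

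The genes whose pattern over the 4 libraries was most like that of each creatine gene were found by the distance between profiles of log2(FPKM + 1) after removal of the gene mean, among 5470 genes with at least 10 FPKM in both genotypes. With only 4 libraries a short distance is common, and it is given as a description. Ckb was closest to Nectin2 (distance 0.18), an adhesion molecule with 39.7 and 39.6 FPKM in Sox4f/f and 18.6 and 18.7 FPKM in Sox4-MKO. Kng2 (0.22) and Tmem37 (0.24) came next. Ckm was closest to Atp2a1 (0.12), the calcium pump of fast muscle, followed by Pgam2 (0.21) and Tnnt3 (0.30), a muscle glycolytic enzyme and a fast troponin. Ckmt2 was closest to the muscle genes Mylpf (0.42), Acta1 (0.48) and Tnni2 (0.56). The limit of 10 FPKM kept Myh1, Myh2, Casq1, Ttn, Neb, Ryr1, Ampd1 and all 6 slow muscle genes out of this search.

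Gamt was closest to Atp5g3 (0.043), a subunit of the mitochondrial ATP synthase with 241 and 236 FPKM in Sox4f/f and 567 and 334 FPKM in Sox4-MKO, then to Ccng1 and Tuba1a. Gatm was closest to Pigp (0.068), Mbp and Gmds. Slc6a8 was closest to Sorbs3 (0.22), Npr3 and Lrrc61, and Alpl to Actl6a (0.042), Ei24 and Nedd4l. Of the 6 genes closest to Ckm or Ckmt2, 5 belonged to the muscle lists, and none of those closest to Gatm, Gamt, Slc6a8 or Alpl did. The distance was not scaled by the size of a change, and the muscle genes changed far more than Gatm, Gamt, Slc6a8 and Alpl. A muscle gene could therefore hardly come closest to any of the latter. The part of muscle RNA in their values was not tested. Mbp, among those closest to Gatm, belonged to the Schwann cell list.

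In order of level, Ckb was first in Sox4f/f mouse 1, and Ckm was first in the other libraries. In the controls Slc6a8 followed at about 24 FPKM, then Gamt, Alpl and Gatm at 7.61, 5.25 and 1.83 FPKM on average. Ckmt2, at 2.75 and 9.54 FPKM, spanned the levels of Gamt and Alpl in the controls and could not be ordered against them. In Sox4-MKO the order was Ckm, Ckmt2, Ckb in both mice, with Gamt, Alpl and Gatm again last. Slc6a8 and Gamt were not separated by more than their spread in Sox4-MKO, since Slc6a8 ranged from 12.0 to 30.9 FPKM and Gamt from 10.7 to 19.5 FPKM.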

How the data were processed

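RNA sequencing was performed on BAT of 4 mice, 2 Sox4f/f and 2 Sox4-MKO, with genotypes and mouse numbers from the sample labels. The authors deposited 1 FPKM value per gene and library. The submitters' processing notes name Cufflinks 2.1.1, Cuffdiff and mm10 without their roles. The aligner and the gene annotation are not given in the sources used here. RNA was extracted with TRIzol and made into TruSeq libraries according to the methods, but with columns and DNase, and into stranded libraries, according to the labels.

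The values are not counts, so limma 3.58.1 (R 4.3.3, trended prior, genotype as the only term) was fitted to log2(FPKM + 1) of the 12877 rows in which the mean of either genotype exceeded 1 FPKM. This is the limit of the study, which names no test for this step. p-values are two-sided, adjustment is Benjamini-Hochberg over all rows tested, and fold changes on this scale understate those of low genes. The code was tested on simulated data. Depth was estimated roughly from the lowest values of genes with 1 transcript of at least 1500 nt, and in 2 libraries some starting values ended at a higher value per fragment. Numbers of fragments are therefore approximate. Coordinates are from GENCODE M21 (GRCm38, the assembly of mm10), matched by symbol, and promoters from RefSeq (GRCm38.p6).

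The creatine genes and all lists were chosen with earlier results of these data known. Genes named with values are the creatine genes, Sox4, Ucp1, at most 4 genes per pathway list at an unadjusted p under 0.05 and the 3 genes closest in pattern to each creatine gene. Acta1, S100a9, Cd68, Mrc1, A930016O22Rik, the pseudogenes, Phgdh, Psph, Slc16a12, Slc25a4, Ak1 and the genes listed at 0 were named after their values were seen. The same holds for the muscle genes that the limit of 10 FPKM kept out of the pattern search. The 16 alternatives were a replicate block, each library left out, 4 scalings, FPKM limits of 0.1 and 5 and none, pseudocounts of 0.1 and 0.01, and tests without moderation on logged and unlogged FPKM. Figures were drawn with matplotlib 3.10.9.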

Additional observations from a re-analysis of the deposited data

How the results depend on the processing

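Ckb stayed lower at an unadjusted p under 0.05 in all 16 alternatives, with log2 fold changes from -1.24 to -0.89. Ckmt2 passed in 14 of 16 (3.33 to 5.16), Ckm in 12 (2.28 to 4.96) and Gamt in 11 (0.44 to 1.25), and Alpl passed in none. Without an FPKM limit all 55387 rows were fitted, and 1606 were lower and 2281 higher at an unadjusted p under 0.05. In that fit 4 creatine genes passed an adjusted p of 0.05, but the share of all rows that did was not counted. Rows at or near 0 entered its variance prior, and Ckm had an unadjusted p of 1.2e-130 in limma from 2 mice per genotype. The p-values of that fit are therefore not relied on. With a common sum without the muscle lists 258 genes were lower and 2058 higher, and Ckb changed by -0.89, or -1.06 relative to the median of all genes, against -1.08 otherwise. Without moderation 553 genes were higher, or 509 on unlogged FPKM, and 0 creatine genes were higher in either test. With 1 library left out, 404 to 1012 genes were lower and 445 to 1559 higher, with both lowest counts without Sox4f/f mouse 1, and 1 to 2 creatine genes were lower and 1 to 3 higher. There the lone library is assumed to vary like the other genotype. The change of Sox4 ran from -0.32 (without Sox4-MKO mouse 2) to 0.71, and was -0.07 without Sox4f/f mouse 2. The change of Slc6a8 ran from -0.96 to 0.34 (without Sox4-MKO mouse 2). The cause of these changes was not tested. The labels give no reason to pair mice by number, and the correlation of the differences between mice 1 and 2 in the 2 genotypes was -0.012. With a replicate block 938 genes were lower and 970 higher, and no call of a creatine gene changed. Depth limited Gatm, which was read from about 39 fragments in one library.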
